A study of Mus musculus with 9 samples.

Results

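Glucocorticoid-responsive genes and corticosteroid receptors were followed in the kidneys of diabetic mice treated with irbesartan. They comprised 9 genes chosen by symbol, of 22180 genes measured under a single symbol. Of these, 7 are genes known to respond to glucocorticoids (Zbtb16, Fkbp5, Tsc22d3, Sgk1, Klf9, Dusp1 and Errfi1) and 2 encode receptors (Nr3c1 and Nr3c2). All 9 were measured. The study asked how gene expression in the diabetic kidney differs with and without irbesartan, an angiotensin II receptor blocker. Total RNA of 9 male mice, 3 per group, was hybridised to 1 array each, and how these mice were picked from the larger treatment groups is not given in the sources used here.

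The 3 groups were db/db mice given irbesartan, db/db mice given vehicle, and db/m mice given vehicle, each for 12 weeks per the labels. The starting age of the db/db mice is given there as 10 weeks, and the same age was recorded here for the db/m mice. The db/db mouse lacks a functional leptin receptor and becomes obese and diabetic, whereas the db/m mouse carries 1 normal copy and serves as the lean control. The study's methods describe the vehicle of the db/db mice as saline by gavage, name the renal cortex where the labels say kidney, and give a younger starting age and another array model than the labels. No db/m mice received irbesartan, so the effect of the drug outside the diabetic genotype was not measured here. The hour of tissue collection is not given in the sources used here.

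Corticosterone is the main glucocorticoid of mice. It binds the glucocorticoid receptor, encoded by Nr3c1, which is held in the cytoplasm by a chaperone complex, moves to the nucleus on binding its ligand and raises or lowers the transcription of its target genes. The mineralocorticoid receptor, encoded by Nr3c2, binds both aldosterone and corticosterone, and in aldosterone target cells of the distal nephron the enzyme encoded by Hsd11b2 inactivates corticosterone before it reaches the receptor. Glucocorticoids are secreted with a daily rhythm and rise in stress.

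Values are log2 signals after robust multi-array averaging, which puts the arrays on a common scale. A gene was called higher or lower when its log2 fold change was beyond 0.5 in size and its adjusted p was under 0.25. These are the study's thresholds, and the adjusted p came from limma fitted across all genes with Benjamini-Hochberg adjustment. Each array is a separate mouse. The RNA is of bulk tissue, where fewer cells of a type and less RNA per cell cannot be told apart.

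Arrays correlated with one another at 0.984 to 0.994 over all probe sets. The 7 proximal tubule markers averaged 11.1 to 11.3 in every mouse, and all 7 adrenal cortex markers lay below the median gene, at means of 2.70 to 2.85. Some mice stood apart from their groups. The 5 neutrophil markers averaged 2.50 to 2.58 in irbesartan-treated db/db mice, 2.59, 2.54 and 4.48 in db/db mice and 2.39 to 2.48 in db/m mice, the high value being that of db/db replicate 3. The 4 adipocyte markers averaged 3.32, 5.37 and 3.39 in irbesartan-treated db/db mice, 3.16, 3.07 and 3.23 in db/db mice and 3.11, 4.23 and 3.24 in db/m mice, and all 4 of their overall means were below that of the median gene. The 5 macrophage markers averaged 5.02, 5.88 and 4.86 in irbesartan-treated db/db mice, 5.12 to 5.23 in db/db mice and 5.35 to 5.41 in db/m mice. Treated replicate 2 was thus the highest of all mice in both the adipocyte and the macrophage list. Where a call was lost without db/db replicate 3, treated replicate 2 or db/m replicate 2, this is said beside it.

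Of the 9 genes, Zbtb16, Sgk1 and Fkbp5 were called in at least 1 comparison, and Tsc22d3, Klf9, Dusp1, Errfi1 and both receptor genes in none. Irbesartan-treated db/db mice had the highest group mean of Zbtb16, Fkbp5, Tsc22d3, Sgk1 and Errfi1. Zbtb16 was lowest in db/db mice, whereas Fkbp5, Tsc22d3, Sgk1 and Errfi1 were lowest in db/m mice. The per-mouse plot of all 9 genes shows these orders.

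**Figure D1:**
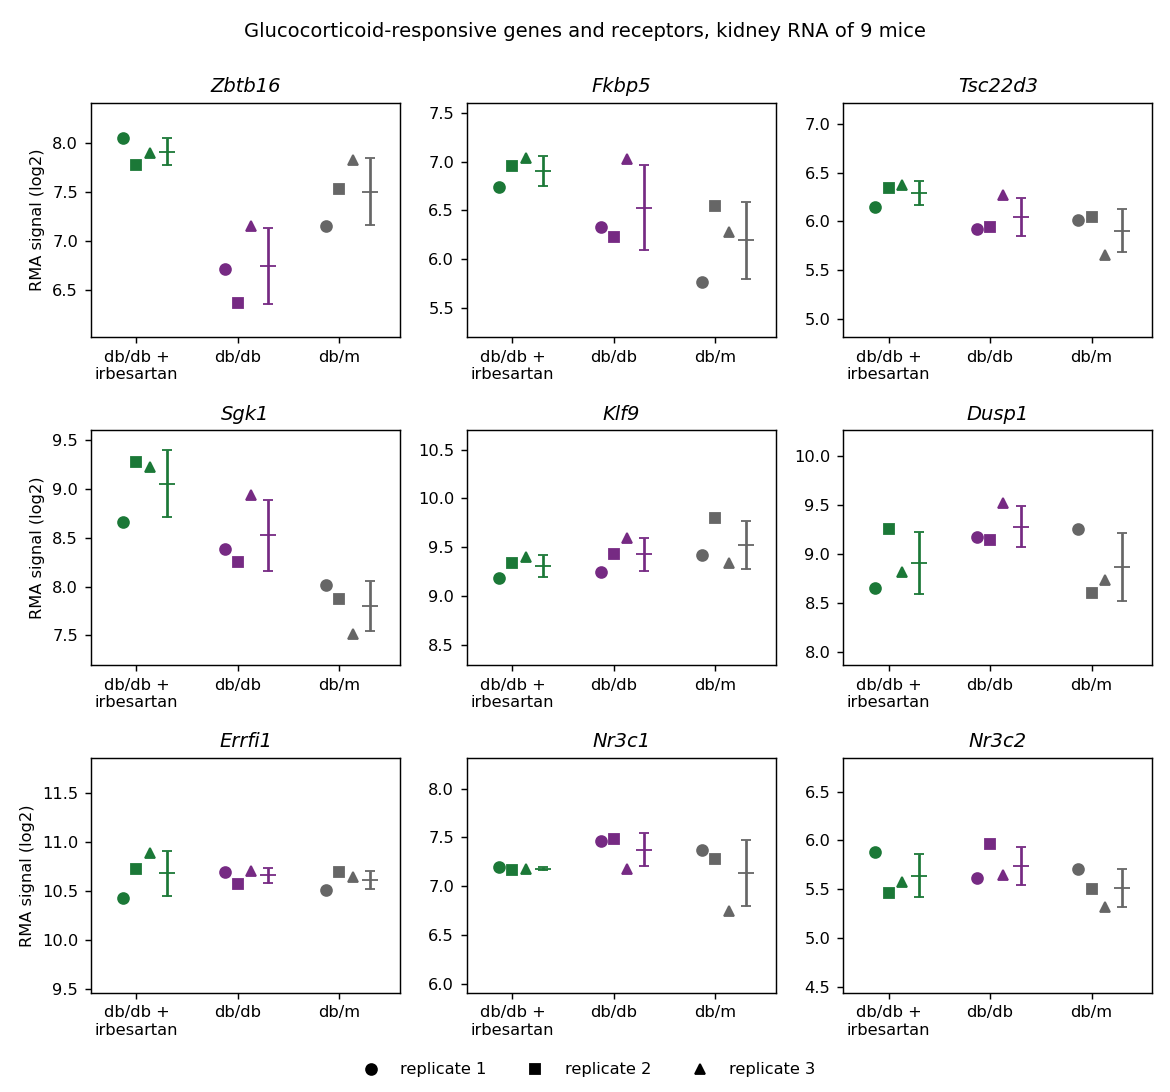
Log2 signal of the 9 genes in each mouse (y axis, each panel spanning the same height) by group (x axis), with 1 symbol per mouse and, to the right of each group, the mean with its SD (n = 3 each). Zbtb16 at 7.78 to 8.06 in irbesartan-treated db/db mice lies above every db/db mouse, and Sgk1 at 7.52 to 8.01 in db/m mice lies below every mouse of the other groups.

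The receptor genes did not pass the test in any comparison. Nr3c1, which encodes the glucocorticoid receptor, measured 7.20, 7.17 and 7.17 in irbesartan-treated db/db mice, 7.47, 7.48 and 7.18 in db/db mice and 7.38, 7.28 and 6.75 in db/m mice. The treated mice lay within 0.03 of each other, db/db replicate 3 was at their level, and db/m replicate 3 was the lowest of all 9 mice. The difference between treated and untreated db/db mice was -0.20, with a 95% interval of -0.53 to 0.14 (limma, adjusted p = 0.642). That between db/db and db/m mice was 0.24, with an interval of -0.10 to 0.58 (limma, adjusted p = 0.548).

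Nr3c2, which encodes the mineralocorticoid receptor, measured 5.88, 5.46 and 5.58 in irbesartan-treated db/db mice, 5.61, 5.96 and 5.64 in db/db mice and 5.71, 5.50 and 5.32 in db/m mice. All 3 groups overlapped. The differences were -0.10 for treated against untreated db/db mice, 0.23 for db/db against db/m mice and 0.13 for treated db/db against db/m mice, with 95% intervals of -0.42 to 0.22, -0.09 to 0.55 and -0.19 to 0.45. A second Nr3c2 probe set averaged 2.08, near the floor of the array, and another is shared with Gm10649, so neither was used.

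Zbtb16 encodes a zinc finger transcriptional regulator whose transcription is induced strongly by glucocorticoids. Its signal was 8.06, 7.78 and 7.90 in irbesartan-treated db/db mice, 6.71, 6.37 and 7.15 in db/db mice and 7.15, 7.53 and 7.83 in db/m mice. Every treated mouse lay above every untreated db/db mouse, while treated and db/m mice overlapped and db/db replicate 3 was just below the lowest db/m mouse. The group means were 7.91 ± 0.14, 6.74 ± 0.39 and 7.50 ± 0.34 (SD, n = 3 each).

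In irbesartan-treated against untreated db/db mice, Zbtb16 was 2.25-fold higher, a log2 fold change of 1.17 with an SE of 0.20 (limma, adjusted p = 0.0906). It was the 1 member called of 9, where 0.577% of all genes were called higher and 0.428% lower. The call was lost without db/db replicate 2 (log2 fold change 0.98, adjusted p = 0.287), without treated replicate 1 (1.1, adjusted p = 0.299) and without treated replicate 3 (1.18, adjusted p = 0.317). Without db/db replicate 3, the mouse with high neutrophil markers, the change was 1.37 (limma, adjusted p = 0.063).

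In db/db against db/m mice Zbtb16 was 1.69-fold lower, a log2 fold change of -0.76 with an SE of 0.20 (limma, adjusted p = 0.124). This call was lost without db/m replicate 3 (-0.60, adjusted p = 0.269), db/db replicate 1 (-0.75, adjusted p = 0.266) or db/db replicate 2 (-0.57, adjusted p = 0.271), and held without db/db replicate 3 (-0.96, adjusted p = 0.0677). Between treated db/db and db/m mice the difference was 0.41, with an interval of -0.04 to 0.86, and did not pass (limma, adjusted p = 0.338). It passed without db/m replicate 3, at 0.57 (limma, adjusted p = 0.206).

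Sgk1 encodes a kinase that raises sodium transport in the distal nephron and is induced through both receptors. Its signal was 8.66, 9.28 and 9.22 in irbesartan-treated db/db mice, 8.39, 8.25 and 8.94 in db/db mice and 8.01, 7.87 and 7.52 in db/m mice. The db/m mice lay below all 6 db/db mice. The 2 db/db groups overlapped, since db/db replicate 3 was above treated replicate 1.

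Against db/m mice, Sgk1 was 2.38-fold higher in irbesartan-treated db/db mice, a log2 fold change of 1.25 with an SE of 0.21 (limma, adjusted p = 0.0111). It was the only one of the 9 genes with an adjusted p under 0.05 in any comparison, and it was called under every alternative that was run, including without any 1 mouse. Untreated db/db mice stood 1.65-fold above db/m mice, at 0.72 with an SE of 0.21 (limma, adjusted p = 0.158). That call was lost without db/db replicate 3, where the change was 0.52 (limma, adjusted p = 0.350), and without db/m replicate 3, where it was 0.58 (adjusted p = 0.319).

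Treated against untreated db/db mice differed in Sgk1 by 0.53, with a 95% interval of 0.06 to 0.99, and did not pass (limma, adjusted p = 0.353). Without db/db replicate 3 it did, at 0.73 (limma, adjusted p = 0.215), while leaving out treated replicate 2 as well returned 0.62 (adjusted p = 0.354). Thus db/db replicate 3 moved the call in both comparisons that contain untreated db/db mice. The share of these values that goes with the neutrophil markers of that mouse was not tested.

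Fkbp5 encodes a co-chaperone that lowers the affinity of the glucocorticoid receptor for its ligand and is itself induced by the receptor, a negative feedback. Its signal was 6.74, 6.95 and 7.03 in irbesartan-treated db/db mice, 6.33, 6.23 and 7.03 in db/db mice and 5.77, 6.54 and 6.28 in db/m mice. All treated mice lay above all db/m mice, and the treated range took in db/db replicate 3 but neither of the other db/db mice. Fkbp5 was 1.64-fold higher in treated db/db than in db/m mice, at 0.71 with an SE of 0.22 (limma, adjusted p = 0.129). The call was lost without db/m replicate 1 (0.50, adjusted p = 0.306), treated replicate 2 (0.69, adjusted p = 0.257) or treated replicate 3 (0.65, adjusted p = 0.323).

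The other differences in Fkbp5 did not pass. They were 0.38 for treated against untreated db/db mice, with an interval of -0.11 to 0.87, and 0.33 for db/db against db/m mice, with an interval of -0.16 to 0.83 (limma, adjusted p = 0.526 and 0.572). Without db/db replicate 3 they were 0.63 and 0.08, neither of them called.

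Tsc22d3 encodes GILZ, a leucine zipper protein that carries part of the anti-inflammatory action of glucocorticoids. Its signal was 6.15, 6.34 and 6.37 in irbesartan-treated db/db mice, 5.92, 5.94 and 6.27 in db/db mice and 6.02, 6.05 and 5.65 in db/m mice. The treated mice lay above all db/m mice, by a mean of 0.38 with an SE of 0.14 (limma, adjusted p = 0.178), which is under the fold threshold. Treated and untreated db/db mice overlapped through db/db replicate 3 and differed by 0.24, with an interval of -0.05 to 0.54.

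In db/db against db/m mice, 1 member was called higher (Sgk1) and 1 lower (Zbtb16), where 1.31% of all genes were called higher and 0.987% lower. In treated db/db against db/m mice, 2 members were called higher (Sgk1 and Fkbp5) and none lower, where 1.93% of all genes were called higher and 1.96% lower. With db/db replicate 3 and treated replicate 2 both left out, 1, 1 and 2 members were called in the 3 comparisons, Zbtb16, Zbtb16, and Sgk1 with Fkbp5. The groups did not overlap for 1 member in treated against untreated db/db mice, 2 in db/db against db/m mice and 3 in treated db/db against db/m mice, beside 21.8%, 16.8% and 23.5% of all genes. The 3 comparisons share their groups, so they are not independent of one another.

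**Figure D2:**
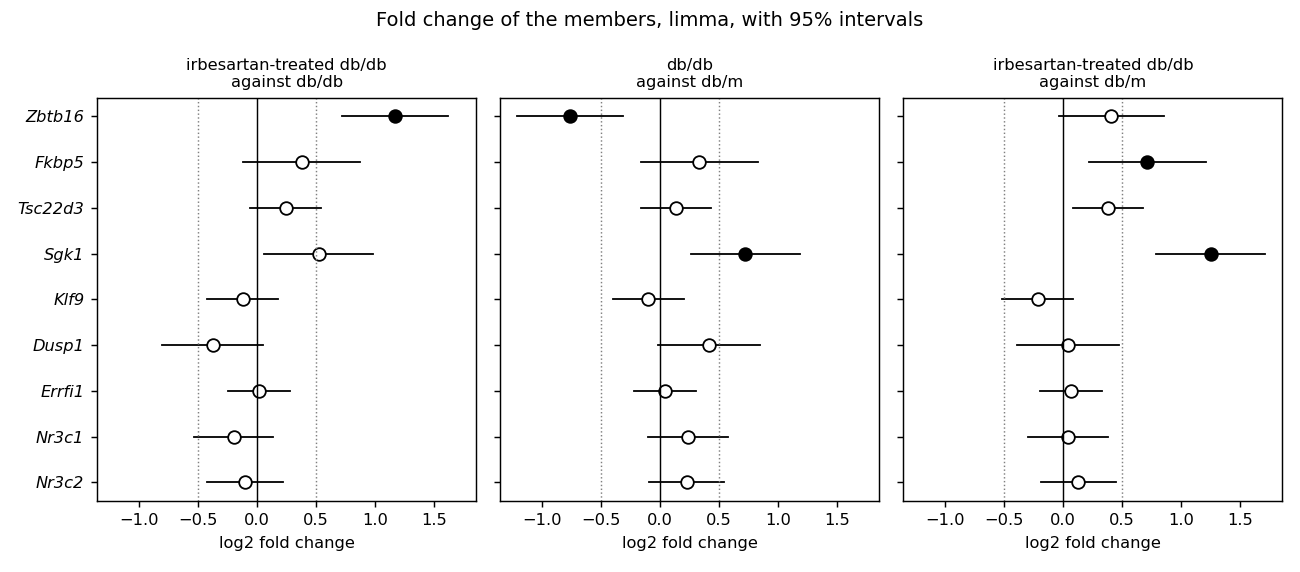
Log2 fold change (x axis) of each of the 9 genes (y axis) in the 3 comparisons, with 95% intervals from limma; filled points were called and dotted lines mark 0.5 in either direction. Zbtb16 lies at 1.17 in treated against untreated db/db mice and at -0.76 in db/db against db/m mice, and Sgk1 lies to the right of 0 in all 3 panels.

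Klf9, Dusp1 and Errfi1 passed no test. Klf9, a zinc finger transcription factor induced by glucocorticoids and thyroid hormone, measured 9.19, 9.34 and 9.40 in irbesartan-treated db/db mice, 9.25, 9.43 and 9.60 in db/db mice and 9.43, 9.80 and 9.34 in db/m mice. Its differences were -0.12 for treated against untreated db/db mice and -0.10 for db/db against db/m mice, with intervals of -0.42 to 0.18 and -0.40 to 0.20. The groups overlapped, and Klf9 was the only responsive gene with its highest group mean in db/m mice.

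Dusp1 encodes a phosphatase that switches off mitogen-activated protein kinases, and it responds to growth factors and stress as well as to glucocorticoids. It measured 8.65, 9.26 and 8.81 in irbesartan-treated db/db mice, 9.17, 9.15 and 9.53 in db/db mice and 9.26, 8.60 and 8.74 in db/m mice. Neither comparison with the db/db group passed, and the groups overlapped in both. The differences were -0.37 for treated against untreated db/db mice (interval -0.80 to 0.05) and 0.42 for db/db against db/m mice (interval -0.01 to 0.84). The db/db against db/m difference passed without db/m replicate 1, which was the highest db/m mouse, at 0.61 (limma, adjusted p = 0.212).

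Errfi1 encodes an inhibitor of the epidermal growth factor receptor and was the flattest member. It measured 10.43, 10.73 and 10.89 in irbesartan-treated db/db mice, 10.70, 10.57 and 10.71 in db/db mice and 10.51, 10.69 and 10.64 in db/m mice. Treated and untreated db/db mice differed by 0.02, with an interval of -0.24 to 0.28, and db/db and db/m mice by 0.05, with an interval of -0.22 to 0.31. The widest spread was within the treated group.

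The responsive genes also differed between mice of the same group. In db/db replicate 3 all 7 of them were the highest of the group, with a median deviation of 0.24 from the group mean, and Fkbp5 stood at 7.03 against 6.33 and 6.23 in the other db/db mice. In irbesartan-treated replicate 1, 6 of 7 were the lowest of the group, Zbtb16 being the exception, with a median deviation of -0.17. The db/m mice showed less order, with Fkbp5 lowest in replicate 1, Sgk1 and Tsc22d3 lowest in replicate 3, and Zbtb16 highest there. With 3 mice a group, these are descriptions of single animals.

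**Figure D3:**
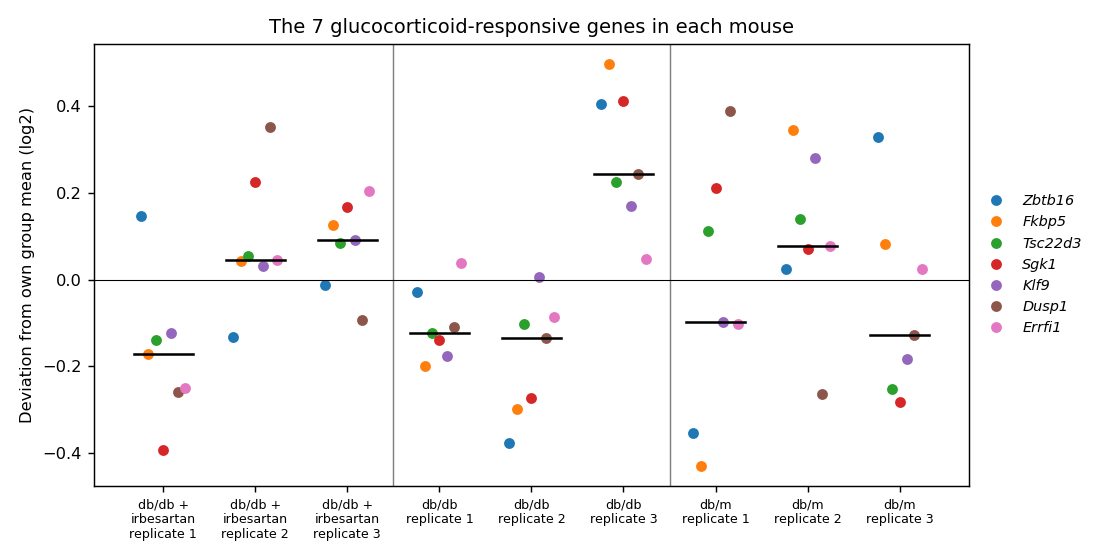
Deviation of each of the 7 responsive genes from its own group mean on the log2 scale (y axis) in each of the 9 mice (x axis); points are genes and black lines the median of the 7. All 7 points of db/db replicate 3 lie above 0, and 6 of the 7 points of irbesartan-treated replicate 1 lie below it.

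The starts of transcription in RefSeq (GRCm38.p6) were searched for sequences that the receptors and other factors bind. Windows of 300 bases, 250 before to 50 after each start, were held for 7 of the 9 genes and numbered 15, of which 6 belong to Sgk1, 3 to Tsc22d3 and 2 to Errfi1. Zbtb16 and Nr3c1 had no entry. The hexamer AGAACA, 1 arm of the glucocorticoid receptor's element, searched on both strands, stood in 4 of the 15 windows, 3 of Sgk1 and 1 of Tsc22d3, and in 19.0% of all 32851 windows in the table. The palindrome of this hexamer, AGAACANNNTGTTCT, stood in 3 of all windows (0.00913%), and 1 of these was of Sgk1. The E-box CACGTG, bound by basic helix-loop-helix factors such as the clock activators, stood in 1 window each of Sgk1, Fkbp5 and Dusp1, and in 7.15% of all windows. The cyclic AMP response element TGACGTCA stood in 1 window each of Dusp1 and Errfi1 and in 1.79% of all, and its shorter form TGACG in 5 of the 15 and in 20.8% of all windows, the full element included. A match describes the letters only, and receptor binding was not measured here.

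Sgk1, Fkbp5, Tsc22d3 and Errfi1 had their highest group mean in treated db/db and their lowest in db/m mice. The Errfi1 windows hold neither a hexamer nor an E-box. For the other 3 genes, the window that holds a hexamer or an E-box is printed here, 5′ to 3′ on the strand of the gene. For Sgk1 it is the one with the palindrome. Capitals mark hexamers (AGAACA or TGTTCT) and E-boxes (CACGTG). The Sgk1 window, at chr10:21993640-21993939, holds the palindrome with its first base 189 bases before that start, at chr10:21993701-21993715, which is 965 bases before the last of the 6 Sgk1 starts. An E-box 246 bases before the same start shares its last 2 bases with a further hexamer. The Fkbp5 window, at chr17:28486100-28486399, holds an E-box 169 bases before the start and no hexamer. The Tsc22d3 window, at chrX:140600473-140600772, holds a hexamer 185 bases before the start.
Sgk1: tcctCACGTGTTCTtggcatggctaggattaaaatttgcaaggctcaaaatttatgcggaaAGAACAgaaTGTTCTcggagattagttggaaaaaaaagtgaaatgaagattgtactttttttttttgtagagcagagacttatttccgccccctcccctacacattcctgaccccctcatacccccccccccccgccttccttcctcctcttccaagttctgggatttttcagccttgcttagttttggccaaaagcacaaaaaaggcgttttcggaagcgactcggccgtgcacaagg
Fkbp5: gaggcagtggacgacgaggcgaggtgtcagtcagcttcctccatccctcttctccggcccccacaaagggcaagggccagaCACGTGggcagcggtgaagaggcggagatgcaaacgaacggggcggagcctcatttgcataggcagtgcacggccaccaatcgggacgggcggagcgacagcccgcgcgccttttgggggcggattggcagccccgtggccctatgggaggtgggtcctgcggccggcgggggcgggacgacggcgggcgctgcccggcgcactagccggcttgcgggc
Tsc22d3: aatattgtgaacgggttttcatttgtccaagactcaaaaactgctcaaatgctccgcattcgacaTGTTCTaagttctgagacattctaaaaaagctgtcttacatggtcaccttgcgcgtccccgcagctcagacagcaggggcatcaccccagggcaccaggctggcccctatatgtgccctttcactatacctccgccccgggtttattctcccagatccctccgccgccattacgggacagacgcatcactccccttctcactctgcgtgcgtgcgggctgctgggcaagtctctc

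Of 28 other genes that glucocorticoids induce, 3 were called higher and none lower in irbesartan-treated against untreated db/db mice, where 0.577% of all genes were called higher, with a median log2 fold change of 0.11 over the list beside -0.01 over all genes. These were Pdk4, a kinase that shuts off pyruvate oxidation (2.11, SE 0.48, adjusted p = 0.164), Angptl4, a secreted inhibitor of lipoprotein lipase (1.16, SE 0.28, adjusted p = 0.174), and Hif3a, of the hypoxia-inducible factor family (0.61, SE 0.15, adjusted p = 0.185; limma for all). Each of the 3 calls was lost when any 1 treated mouse, db/db replicate 1 or db/db replicate 2 was left out.

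Pdk4 measured 8.67, 9.61 and 9.36 in irbesartan-treated db/db mice, 7.06, 6.14 and 8.12 in db/db mice and 7.10, 7.50 and 8.64 in db/m mice. Angptl4 measured 9.0, 9.51 and 9.35 in irbesartan-treated db/db mice, 8.07, 7.52 and 8.80 in db/db mice and 8.52, 9.04 and 9.21 in db/m mice. For both, db/db replicate 3 was the highest of its group and the treated mice lay above all untreated db/db mice. Both are also induced in fasting and by fatty acids.

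In db/db against db/m mice the 1 gene of the list called was Per1, a clock gene with glucocorticoid response elements, which was higher by 0.63 (limma, adjusted p = 0.205), at 8.04, 8.18 and 8.42 in db/db mice against 7.82, 7.85 and 7.09 in db/m mice. The median of the list was 0.15, beside 0.0050 over all genes. The Per1 call was lost without any 1 of the db/db mice, db/m replicate 3 or treated replicate 3, at 0.38 to 0.71, and without db/db replicate 3 Angptl4 was called lower.

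In treated db/db against db/m mice 4 genes of the list were called higher, where 1.93% of all genes were, and the median was 0.26 beside -0.00128 over all genes. Hif3a (0.68) and the metallothionein Mt1 (0.65) were called under every alternative that was run. Pdk4 (1.46, limma, adjusted p = 0.144) was lost without db/m replicate 1 (1.14), treated replicate 2 (1.27) or treated replicate 3 (1.39). Cdkn1a, a cell cycle inhibitor, was the weakest of the 4 (0.93, limma, adjusted p = 0.248), and was lost without any 1 treated mouse, db/m replicate 1, db/m replicate 2 or db/db replicate 1, at 0.59 to 1.12. Without treated replicate 2, the mouse with high adipocyte and macrophage markers, 2 of the 4 were called, Hif3a and Mt1.

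Mt1 was 8.96, 8.93 and 8.99 in irbesartan-treated db/db mice, 8.65, 8.75 and 8.60 in db/db mice and 8.29, 8.28 and 8.35 in db/m mice, so that the 3 groups did not overlap at all (treated db/db against db/m, limma, adjusted p = 0.00337). The list averaged 7.31, 7.49 and 7.37 in treated db/db mice, 7.06, 7.02 and 7.55 in db/db mice and 7.01, 7.14 and 7.17 in db/m mice. The highest value was again that of db/db replicate 3, and with this mouse and treated replicate 2 left out 3 genes of the list were called higher in treated against untreated db/db mice, none higher and 1 lower in db/db against db/m mice, and 5 higher in treated db/db against db/m mice.

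**Figure D4:**
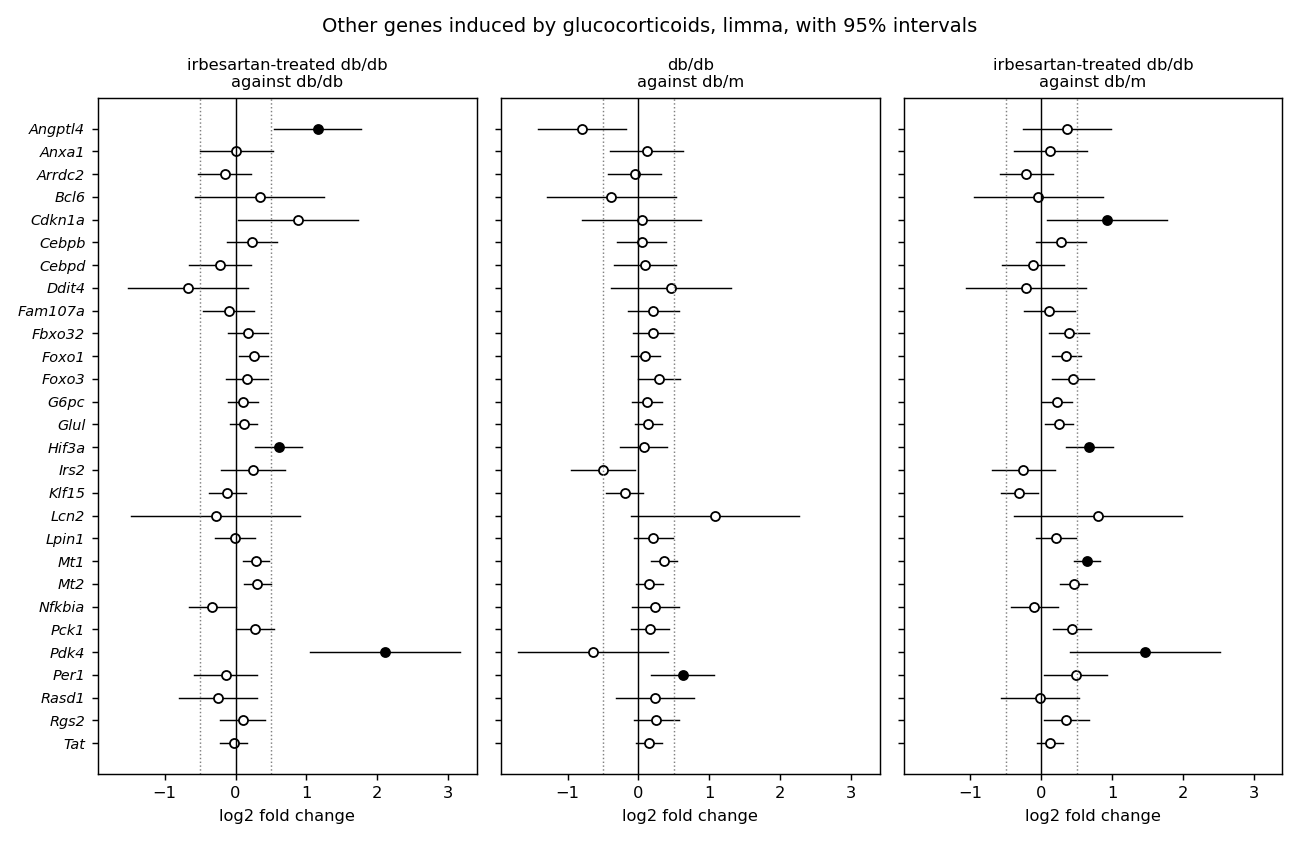
Log2 fold change (x axis) with 95% intervals from limma for 28 further glucocorticoid-induced genes (y axis, alphabetical) in the 3 comparisons; filled points were called and dotted lines mark 0.5 in either direction. In treated against untreated db/db mice Pdk4 lies at 2.11, Angptl4 at 1.16 and Hif3a at 0.61, and the other 25 open points were not called.

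Of 14 genes that glucocorticoids repress, mostly cytokines and adhesion molecules, none was called in treated against untreated db/db mice. However, 11 of the 14 lay below the median gene and the list averaged 3.79 to 4.09 over the 9 mice, so a fall could be missed. The chemokine Ccl5 alone was called lower against db/m mice, by -1.18 in db/db mice (limma, adjusted p = 0.0831) and by -1.37 in treated db/db mice (limma, adjusted p = 0.0266). It measured 4.51, 5.86 and 4.88 in irbesartan-treated db/db mice, 5.22, 5.58 and 5.0 in db/db mice and 6.30, 6.43 and 6.62 in db/m mice. Lymphocytes express Ccl5, and their 4 markers averaged 3.34 to 3.52, 3.60 to 3.75 and 3.85 to 3.98 in the same groups. Their part in the Ccl5 values was not tested.

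Of 14 measured chaperones and coregulators of the receptor, 1 was called in 1 comparison, the corepressor Nrip1, which was higher by 0.51 in treated db/db than in db/m mice (limma, adjusted p = 0.0125). It fell under the fold threshold without treated replicate 2 (0.48) or db/m replicate 3 (0.46), and after median centring (0.47). None of 15 close relatives of the 9 genes was called in any comparison. Their medians lay between 0.04 and 0.15.

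Of the 5 measured genes that handle corticosteroids, none was called between the db/db groups and 3 were called against db/m mice. Abcb1a and Abcb1b encode P-glycoproteins, pumps that export corticosteroids among many other compounds, and are close copies of each other whose probes may cross-react. Abcb1b measured 6.40, 6.84 and 6.59 in irbesartan-treated db/db mice, 6.91, 6.78 and 6.59 in db/db mice and 5.20, 5.73 and 5.54 in db/m mice. It was higher than in db/m mice by 1.12 in treated db/db mice (limma, adjusted p = 0.00441) and by 1.27 in untreated db/db mice (adjusted p = 0.00336). Abcb1a was higher by 0.71 and 0.88 in the same comparisons (limma, adjusted p = 0.0061 and 0.00312). Treated and untreated db/db mice differed by -0.15 in Abcb1b and -0.17 in Abcb1a, not passing the test.

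Hsd11b1, whose enzyme regenerates active corticosterone, measured 6.09, 6.19 and 5.83 in irbesartan-treated db/db mice, 6.11, 6.14 and 6.14 in db/db mice and 6.68, 6.35 and 6.6 in db/m mice. All db/db mice lay below the db/m mice, and the difference of -0.50 for treated mice was just past the fold threshold (limma, adjusted p = 0.0448) and that of -0.41 for untreated mice under it. The call for treated mice was lost without db/m replicate 1 (-0.44), db/m replicate 3 (-0.48) or treated replicate 3 (-0.40). Hsd11b2, whose enzyme inactivates corticosterone in aldosterone target cells, measured 10.31, 10.34 and 10.37 in irbesartan-treated db/db mice, 10.02, 10.16 and 10.08 in db/db mice and 9.80, 9.77 and 10.12 in db/m mice. Treated mice lay above all others, by 0.25 against db/db and 0.44 against db/m mice, both under the fold threshold (limma, adjusted p = 0.375 and 0.0503). H6pd, which supplies the cofactor of the Hsd11b1 enzyme, differed by -0.09, -0.08 and -0.17 in the 3 comparisons and was not called.

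Of 11 measured genes of aldosterone-responsive sodium transport, Scnn1a alone was called. It encodes the alpha subunit of the epithelial sodium channel and is induced by aldosterone and by glucocorticoids. Scnn1a measured 9.54, 9.26 and 9.41 in irbesartan-treated db/db mice, 9.12, 9.08 and 9.38 in db/db mice and 8.52, 8.47 and 8.97 in db/m mice. It was higher than in db/m mice by 0.75 in treated db/db mice (limma, adjusted p = 0.0197) and by 0.54 in untreated db/db mice (adjusted p = 0.123), and the call for untreated mice was lost without db/db replicate 3, db/m replicate 1 or db/m replicate 2, at 0.45 to 0.47. Like Sgk1 it had db/db replicate 3 as the highest of its group.

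Some markers of distal nephron cells, where Sgk1 and Scnn1a act, were also higher in db/db than in db/m mice. Of 4 distal convoluted tubule markers, Calb1 was called higher than in db/m mice in treated (0.73) and untreated db/db mice (0.68), and Trpm6 in treated db/db mice (0.56), the last of these being lost without treated replicate 1, treated replicate 3 or db/m replicate 3. The list averaged 9.10, 8.80 and 9.11 in treated db/db mice, 8.95, 8.92 and 8.81 in db/db mice and 8.42, 8.59 and 8.47 in db/m mice, so all db/m mice lay below the others. None of the 5 principal cell markers was called, with list means of 8.49 to 8.66, 8.56 to 8.76 and 8.37 to 8.62 in the same groups. Thick ascending limb and intercalated cell markers were also lower in every db/m mouse than in any other mouse. The first averaged 9.81 to 9.99 in db/m and 10.06 to 10.18 in the other mice, the second 7.49 to 7.74 and 7.82 to 8.01. Treated replicate 2 and db/db replicate 3, the highest of their groups in Sgk1, were the lowest in the distal convoluted tubule list. The part of these segments in the Sgk1 values was not tested.

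Of 18 immediate early genes, which respond to tissue handling as well as to hormones, none was called in treated against untreated db/db mice or in db/db against db/m mice. In treated db/db against db/m mice 3 were called higher, Jun (0.68), Myc (0.58) and Btg2 (0.52), where 1.93% of all genes were. None of the 3 was called without treated replicate 2, at 0.52 for Jun, 0.45 for Myc and 0.48 for Btg2. Myc was also lost without either of the other treated mice, db/m replicate 1 or db/m replicate 2, Jun without treated replicate 3 and Btg2 without db/m replicate 1. The list averaged 5.70, 6.09 and 5.83 in treated db/db mice, 5.55, 5.65 and 5.74 in db/db mice and 5.52, 5.61 and 5.91 in db/m mice.

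Clock genes were called in all 3 comparisons. The 5 genes in phase with Arntl, the core clock activator, averaged 6.45, 6.88 and 6.61 in irbesartan-treated db/db mice, 5.45, 5.35 and 5.83 in db/db mice and 5.57, 5.83 and 6.53 in db/m mice. The 8 genes in antiphase averaged 7.05, 7.04 and 7.07 in treated db/db mice, 7.92, 8.03 and 7.65 in db/db mice and 7.62, 7.55 and 6.92 in db/m mice. In treated against untreated db/db mice 3 of the 5 were called higher (Arntl, Nfil3 and Cry1) and 3 of the 8 lower (Ciart, Dbp and Nr1d1). Each of these calls was lost without db/db replicate 2 or treated replicate 3. Those of Arntl, Ciart, Cry1 and Dbp were also lost without treated replicate 1. The Cry1 and Dbp calls were lost without treated replicate 2 or db/db replicate 1 as well.

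In db/db against db/m mice, Arntl (-1.0) and Npas2 (-1.65) of the first list were called lower and Per3 (0.99) and Per1 (0.63) of the other higher. The Arntl call was lost without any 1 treated mouse, db/db replicate 1, db/db replicate 2 or db/m replicate 3, and that of Npas2 without db/db replicate 1 or db/db replicate 3. In treated db/db against db/m mice, where Zbtb16 was not called, Cry1 (1.53) and Nfil3 (1.19) were called higher and Nr1d1 (-1.94) lower under every alternative that was run. Ciart was also called lower there (-1.07), and was lost without db/m replicate 1, treated replicate 1 or treated replicate 2.

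Within the groups, Zbtb16 ordered the 3 db/db mice and the 3 db/m mice as the first clock list did, and the 3 treated mice in reverse. Sgk1 ordered the treated mice and the db/db mice as that list did, and the db/m mice in reverse. The Zbtb16 level and the first clock list of db/m replicate 3 each lay within the range of the treated mice. Clock phase, hour of collection and treatment cannot be told apart in these groups.

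**Figure D5:**
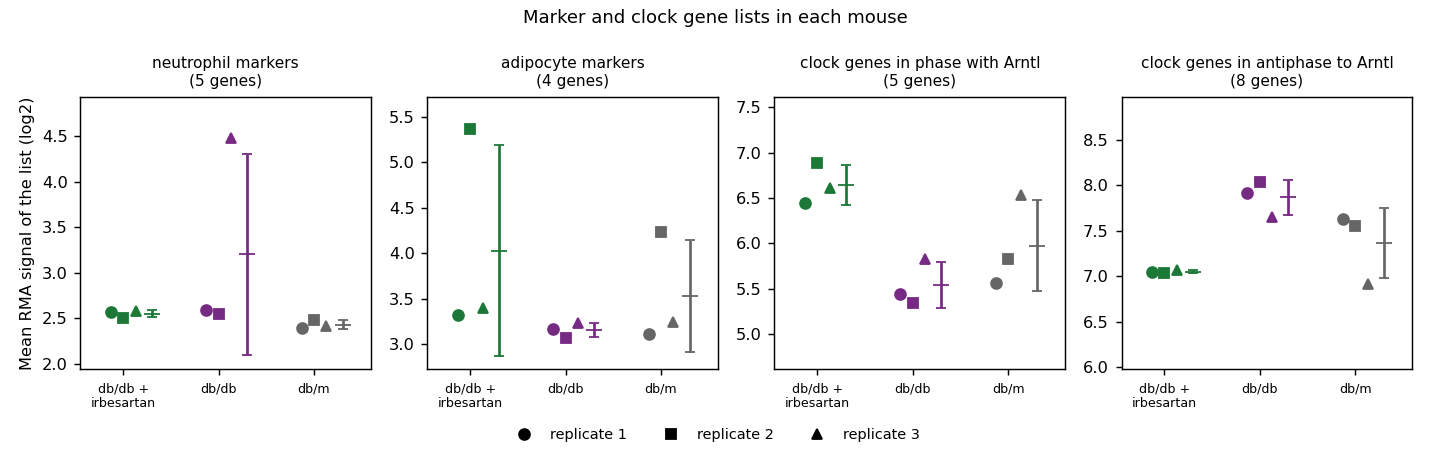
Mean log2 signal of 4 gene lists (y axis, each panel spanning the same height) in each mouse by group (x axis), with symbols for mice and the mean with its SD to the right (n = 3 each). Neutrophil markers stand out in db/db replicate 3 (4.48) and adipocyte markers in irbesartan-treated replicate 2 (5.37), and db/m replicate 3 lies with the treated mice in the first clock list (6.53) and just below them in the other (6.92).

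Likeness over the 9 arrays was measured as the mean absolute difference between centred profiles, among 11089 genes at or above the median level. The profile nearest to that of Zbtb16 was Angptl4, at a mean difference of 0.17, followed by Slc25a30 and Rasl11a at 0.23 and 0.24. Those nearest to Sgk1 were Slc45a3, Foxq1 and Zfas1 at 0.17 to 0.18, and those nearest to Fkbp5 were Sult1a1, Slc7a5 and Lbp at 0.12 to 0.14. Among the 9 genes themselves the closest pair was Nr3c1 and Nr3c2 (0.13), followed by Klf9 and Errfi1 (0.16). None of these was called in any comparison. Profiles were centred but not scaled, so genes that vary little lie close on this measure whether or not they move together. Over the 9 arrays Nr3c1 ranged over 0.73, Nr3c2 over 0.64, Klf9 over 0.62 and Errfi1 over 0.45. Zbtb16 ranged over 1.69 and Sgk1 over 1.76. Zbtb16 was 0.42 from Fkbp5 and 0.62 from Sgk1. These are descriptions over arrays that share their groups.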

How the data were processed

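The deposited table holds log2 signals of 41345 probe sets for 9 arrays, which the authors made with Affymetrix Expression Console by robust multi-array averaging (RMA), per the labels. Its software version is not given in the sources used here. RMA puts the arrays on a common scale, so a shift of all genes would largely not show. Array medians of the deposited values still ranged from 3.36 to 3.45. Probe sets were named through the platform annotation. Of them 23521 had a single symbol, 1820 had several and 16004 had none, and only the first were used. A gene with several probe sets (1082 genes) took the one with the highest mean signal. The number of arrays, 3 per group, limits the precision.

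All 22180 genes were fitted with limma 3.58.1 (R 4.3.3) with 1 mean per group over all 9 arrays, and p-values were adjusted over all genes by the Benjamini-Hochberg method. The methods name a one-way analysis of variance per gene. A version on the 6 compared arrays only, with each gene's own spread, was run as an alternative. The study's fold condition, printed there as an upper bound, was read as a lower bound. The fit was tested on simulated data before use. Alternatives were the 6 compared arrays only, a variance trend, a filter at the median signal, every probe set, the mean of probe sets, median centring, a replicate block, a stricter threshold and leaving out each mouse. One more, leaving out 2 mice that stood apart, was chosen after seeing the data.

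The 9 genes and all lists were chosen with earlier results of these data known. Named genes were all members, every gene of the corticosteroid list and the 3 nearest profiles of each called member. Of each list other than cell markers, the 2 highest and 2 lowest log2 fold changes among called genes were named. Angptl4 in db/db against db/m mice, Dbp, Ciart and other calls beyond that were named after their values were seen. Among cell markers, Foxi1 (intercalated cell), Rgs5 (pericyte) and Csf1r (macrophage) were also called in some comparison and are not described above. Promoters came from RefSeq (GRCm38.p6) and were matched by symbol. None of the 3 erythroid markers was under a single symbol.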

Additional observations from a re-analysis of the deposited data

How the results depend on the processing

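With 3 mice a group, most calls on single members depended on 1 mouse or on the threshold. Sgk1 in treated db/db against db/m mice was called under all alternatives. In treated against untreated db/db mice 1 member was called, and in db/db against db/m and treated db/db against db/m mice 2 each. These counts became 0, 0 and 1 at an adjusted p under 0.05 without a fold condition. A one-way analysis of variance on the 6 compared arrays only gave the same counts. The study, whose methods name such a test, lists Zbtb16 among its genes differing between treated and untreated db/db mice. Its table prints the Zbtb16 fold change at the size of the limma value here but with the opposite sign. Which group served as the reference is not stated in that table. With every probe set tested, the count in db/db against db/m mice was 0. Leaving out mice gave 0 to 2, 0 to 3 and 1 to 3 members.

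Over all genes, 223, 510 and 862 were called. The analysis of variance on 6 arrays called 0, 5 and 511. At an adjusted p under 0.05 by limma 0 and 246 were called in the first pair of comparisons, where 2712 and 2890 had an unadjusted p under 0.05. Testing every probe set gave 131 in treated against untreated db/db mice and 1565 in treated db/db against db/m mice. Leaving out mice gave 20 to 336, 437 to 703 and 767 to 1118 genes. In treated against untreated db/db mice dropping treated replicate 1 left 32 genes and dropping treated replicate 3 left 20, while dropping db/db replicate 2 left 30 and dropping db/db replicate 3 raised the count to 336. Median centring turned the split in treated against untreated db/db mice, with 35.3% of the called genes higher beside 57.4% without it. No member was called in the opposite direction in any setting.

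Directions reversed only for members whose log2 fold change was within 0.1 of 0. Leaving out mice, Dusp1 in treated db/db against db/m mice ranged between -0.13 and 0.24, Nr3c1 between -0.15 and 0.16 and Errfi1 between -0.034 and 0.19. Errfi1 ranged between -0.081 and 0.15 in treated against untreated db/db mice, and was -0.031 after median centring. In db/db against db/m mice Errfi1 ranged between -0.0042 and 0.090, and Klf9 between -0.19 and 0.043. Nr3c2 ranged between -0.22 and 0.012 in treated against untreated db/db mice.

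Mice with the same replicate number did not deviate together, with correlations of -0.08 to 0.04 over 9 pairs, so the numbers are names only. With a replicate block 143, 503 and 864 genes were called, and 1, 2 and 2 members.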
